A study of Arabidopsis thaliana with 4 samples.

Results

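JAZ7 (AT2G34600), JAZ8 (AT1G30135) and JAZ13 (AT3G22275) are the Arabidopsis JAZ repressors that carry an EAR motif near the start of the protein. They were picked by locus and are 3 of the 13 JAZ genes and 3 of the 33565 genes with a deposited expression value. RNA was measured in the roots of seedlings of Col-0, a wild-type ecotype, that had grown for 7 days on 1/2 MS medium that held no hormone (control), 10 μM methyl jasmonate (MeJA; JA), 50 nM benzylaminopurine (BAP), a synthetic cytokinin (cytokinin), or both hormones (JA/cytokinin). All 4 groups were wild type, the hormones were present in the medium for the whole period of growth, and RNA was extracted from the roots. Each condition had 1 RNA-seq library, so no difference has a replicate check, no test between conditions could be run, and the intervals below cover counting error only.

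JAZ proteins hold back the jasmonate response by binding MYC transcription factors at their target promoters. The active hormone, JA-Ile, joins JAZ to the F-box protein COI1, JAZ is destroyed, and MYC factors then switch on their targets, which include most JAZ genes themselves. Most JAZ proteins reach the co-repressor TOPLESS (TPL) through the adaptor NINJA, whereas an EAR motif, an alternation of leucines written LxLxL, can bind TPL directly. JAZ8 lacks the degron by which COI1 and JA-Ile hold other JAZ proteins and is known to be resistant to hormone-driven destruction. JAZ7 is known for a role in dark-induced leaf senescence, and JAZ13 is a divergent JAZ whose overexpression lowers jasmonate sensitivity.

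The coding starts of the members are shown because they hold the EAR motif, which in these proteins lies near the start. Each runs from the start codon to 5 codons past the motif, read from the TAIR10.1 reference genome with its RefSeq annotation, with the 15 bases that encode LxLxL in capitals. JAZ7 lies on the plus strand at chr2:14573172-14573276, JAZ8 on the plus strand at chr1:10596516-10596569 and JAZ13 on the minus strand at chr3:7879710-7879754.
JAZ7: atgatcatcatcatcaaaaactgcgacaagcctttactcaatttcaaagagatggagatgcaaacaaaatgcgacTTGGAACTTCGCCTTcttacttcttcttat
JAZ8: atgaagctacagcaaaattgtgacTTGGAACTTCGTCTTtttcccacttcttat
JAZ13: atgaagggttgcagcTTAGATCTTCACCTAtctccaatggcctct

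In the translated coding sequences, LxLxL began at residue 26 of 148 in JAZ7, residue 9 of 131 in JAZ8 and residue 6 of 125 in JAZ13. Among the 10 other JAZ genes, here called canonical, the longest proteins had 187 to 352 residues, and LxLxL was found only in JAZ5 and JAZ6, where it ended on the last residue of the protein. The TIFYxG letters of the TIFY domain, through which JAZ proteins bind NINJA and one another, were found in JAZ7 and JAZ8 but not in JAZ13, and in 6 of the 10 canonical JAZ genes. The degron letters LPIAR were in none of the 3 members and in 5 of the 10 canonical JAZ genes. Both searches were for exact letters. A protein without them can still hold a variant form, so their absence does not show that a domain or degron is missing. JAZ7 and JAZ8 shared 52.3% of aligned residues, whereas JAZ13 shared 23.5% with JAZ7 and 26.2% with JAZ8. The longest run of identical transcript bases between JAZ7 and JAZ8 was 18, against reads of 100 bases.

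The 3 genes lie on different chromosomes. In TAIR10.1, JAZ7 spans chr2:14573030-14573952 on the plus strand with 2 exons, JAZ8 spans chr1:10596352-10597341 on the plus strand with 3 exons, and JAZ13 spans chr3:7878807-7879810 on the minus strand with 3 exons. The JAZ13 locus overlaps 6 bases of AT3G22270 on the opposite strand, and whether strand was used in counting is not given in the sources used here. AT3G22270 had 11.2 FPKM in control, 9.81 in JA, 11.6 in cytokinin and 10.2 in JA/cytokinin. FPKM is the number of fragments per kilobase of transcript, scaled to the mapped fragments of the library.

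The 250 bases before each gene start are shown with the G-box CACGTG, the classical MYC2 element, in capitals. They lie at chr2:14572780-14573029 (JAZ7), chr1:10596102-10596351 (JAZ8) and, on the minus strand, chr3:7879811-7880060 (JAZ13).
JAZ7: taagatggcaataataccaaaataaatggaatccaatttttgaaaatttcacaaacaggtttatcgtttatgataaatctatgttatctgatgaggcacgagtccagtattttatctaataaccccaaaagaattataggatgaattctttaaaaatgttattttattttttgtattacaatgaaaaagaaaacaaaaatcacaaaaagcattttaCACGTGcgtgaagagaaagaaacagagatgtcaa
JAZ8: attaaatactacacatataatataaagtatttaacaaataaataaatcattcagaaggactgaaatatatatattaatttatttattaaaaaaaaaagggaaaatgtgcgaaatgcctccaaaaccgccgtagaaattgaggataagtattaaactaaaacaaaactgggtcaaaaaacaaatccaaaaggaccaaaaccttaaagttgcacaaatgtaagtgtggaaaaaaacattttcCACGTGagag
JAZ13: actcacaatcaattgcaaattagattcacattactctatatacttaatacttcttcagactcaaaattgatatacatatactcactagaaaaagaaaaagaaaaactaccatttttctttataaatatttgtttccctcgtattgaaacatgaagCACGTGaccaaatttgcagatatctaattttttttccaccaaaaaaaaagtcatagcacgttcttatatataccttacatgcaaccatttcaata

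A G-box, which reads the same on both strands, was found in 3 of 3 members, in 2 of 10 canonical JAZ genes (JAZ2 and JAZ3) and in 6.57% of 26684 promoters of the same length. It began 34 bases before the start of JAZ7, 10 before that of JAZ8 and 95 before that of JAZ13. The related CACATG, searched on both strands, was in 11.2% of promoters and the GCC box GCCGCC in 1.85%, and neither was in these windows of the members. CACATG was in 2 of 10 canonical JAZ genes (JAZ9 and JAZ10). Of the canonical genes with a G-box, JAZ3 was 4.42-fold higher in JA than in control, and JAZ2 rose more than JAZ3. Those without it ran from under 2-fold (JAZ11) to 174-fold (JAZ10). A link between the G-box and the JA ratio was not tested, and bases further upstream were not searched. A match describes the letters only, and no binding was measured.

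All 3 members were low in control roots and higher wherever JA was present. JAZ7 had 1.64 FPKM in control (counting interval 1.21 to 2.17), 19.4 in JA (17.9 to 21.0), 0.988 in cytokinin (0.665 to 1.41) and 9.85 in JA/cytokinin (8.81 to 11.0). JAZ8 had 0.610 FPKM in control (0.360 to 0.966), 16.8 in JA (15.4 to 18.3), 0.441 in cytokinin (0.234 to 0.756) and 5.12 in JA/cytokinin (4.37 to 5.96). JAZ13 had 0.449 FPKM in control (0.243 to 0.758), 8.26 in JA (7.29 to 9.31), 0.358 in cytokinin (0.178 to 0.641) and 17.5 in JA/cytokinin (16.1 to 18.9). JAZ7 and JAZ8 were thus highest in JA, and JAZ13 was highest in JA/cytokinin. For each gene the control and cytokinin intervals overlapped, and the JA and JA/cytokinin intervals did not.

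**Figure D1:**
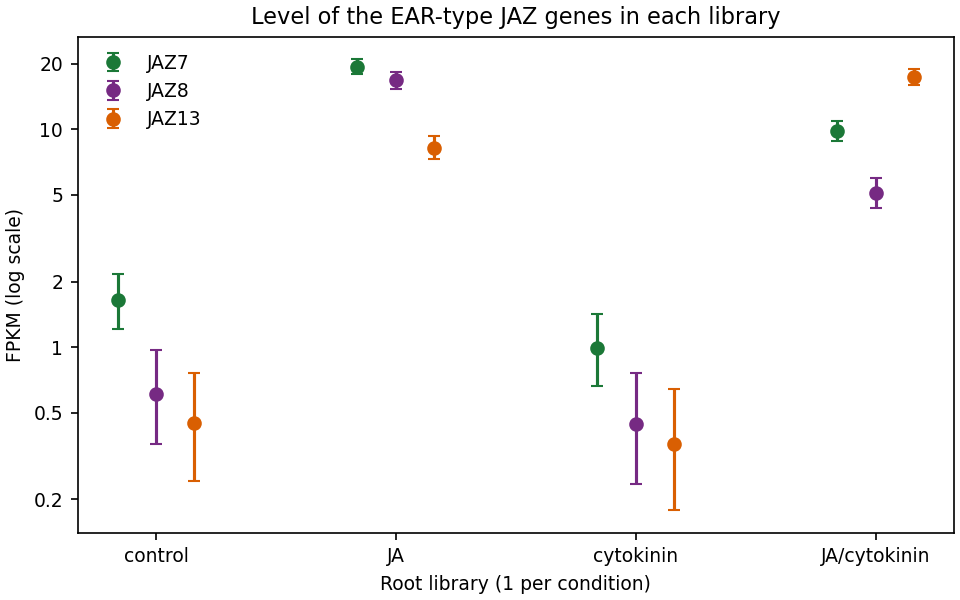
FPKM (log axis) of JAZ7, JAZ8 and JAZ13 in the 4 root libraries, 1 per condition, with 95% counting intervals as bars. All 3 were under 2 FPKM without JA, and JAZ13 moved from the lowest of the members in JA (8.26 FPKM) to the highest in JA/cytokinin (17.5 FPKM).

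The low values rested on few fragments. An estimated 49.0 fragments in control and 29.7 in cytokinin lay behind JAZ7, 17.8 and 12.9 behind JAZ8, and 13.7 and 10.9 behind JAZ13. With JA the members rested on 264 to 609 estimated fragments, and with JA/cytokinin on 166 to 591. No member was at or under the floor of 3 fragments in any library.

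The JA effect without cytokinin asked how far JA alone moved the members. JAZ8 was 27.5-fold higher in JA than in control (log2 ratio 4.78, counting interval 4.10 to 5.55), JAZ13 18.4-fold (4.20, 3.42 to 5.10) and JAZ7 11.8-fold (3.56, 3.14 to 4.01). All 3 members passed 2-fold upward, as did 9.32% of the 22291 genes whose FPKM exceeded 0 in every library, and 11.3% of those genes passed 2-fold downward. Ranked from the highest ratio among those genes, JAZ8 was number 117, JAZ13 number 159 and JAZ7 number 244. Of the canonical JAZ genes, 8 of 10 passed 2-fold upward and 0 downward, with a median log2 ratio of 2.62 against 4.20 for the members and -0.02 for all genes. With a pseudocount of 1 added to each FPKM, the medians were 2.51 for the canonical genes and 2.95 for the members. JAZ10, a JAZ with stable splice forms, went from 2.59 FPKM in control to 449 in JA, and JAZ5 from 0.910 to 35.1, so that the members were not the steepest of the family.

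The JA effect with cytokinin compares JA/cytokinin with cytokinin and uses neither library of the comparison above. JAZ13 was 48.8-fold higher (log2 ratio 5.61, counting interval 4.76 to 6.62), JAZ8 11.6-fold (3.54, 2.72 to 4.48) and JAZ7 9.97-fold (3.32, 2.77 to 3.91). In this comparison 10.2% of all genes passed 2-fold upward and 7.8% downward. JAZ13 ranked 41 from the top, JAZ8 161 and JAZ7 195. Among the canonical genes 7 of 10 passed 2-fold upward and 0 downward, with a median of 2.09 against 3.54 for the members and 0.04 for all genes. With a pseudocount of 1 the medians were 2.02 for the canonical genes and 2.45 for the members. JAZ13 had the highest log2 ratio of the 13 JAZ genes here, above JAZ10 at 5.24, whose value lay inside the counting interval of JAZ13. That rank rested on an estimated 10.9 fragments of JAZ13 in cytokinin. With a pseudocount of 1 JAZ13 had 3.76 and fell below JAZ10, which held 6.85 FPKM in cytokinin and 260 in JA/cytokinin.

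**Figure D2:**
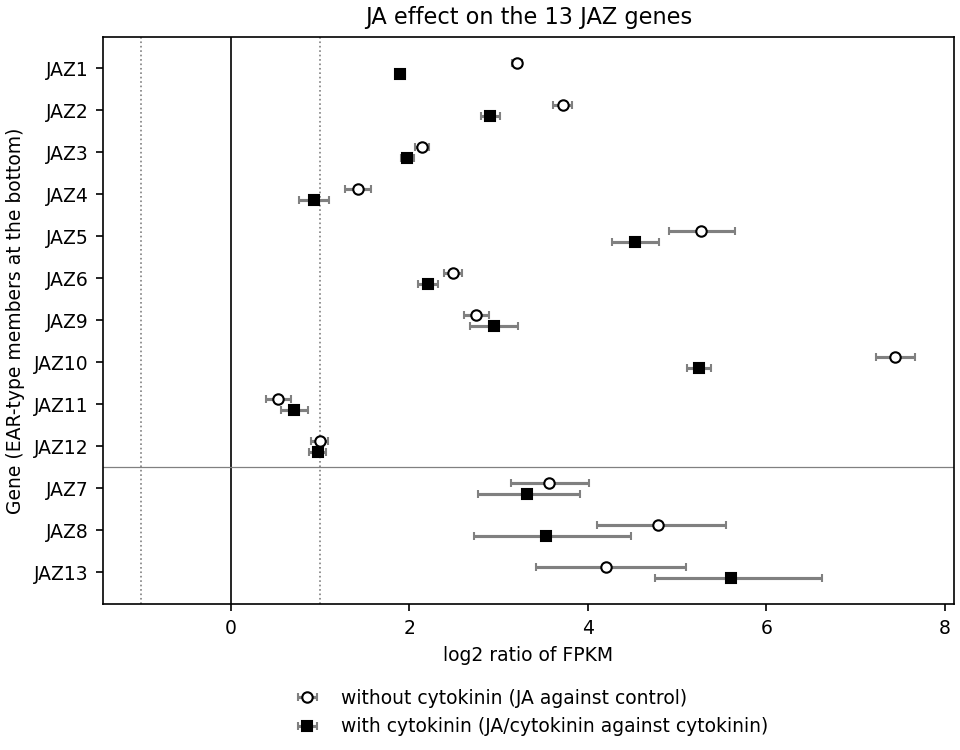
log2 ratios of FPKM for JA against control (open circles) and JA/cytokinin against cytokinin (filled squares) in the 13 JAZ genes, with 95% counting intervals and dotted lines at 2-fold. The members stand at the bottom, and JAZ13 moved from 4.20 to 5.61 while JAZ8 moved from 4.78 to 3.54.

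Against control, JA/cytokinin raised JAZ13 38.9-fold, JAZ8 8.40-fold and JAZ7 6.01-fold (log2 ratios 5.28, 3.07 and 2.59). The corresponding shares of all genes past 2-fold were 11.4% upward and 11.6% downward, and 7 of 10 canonical JAZ genes were past it upward, with a median log2 ratio of 2.12. JAZ13 ranked 53 from the top among all genes.

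Cytokinin alone moved none of the members past 2-fold. The log2 ratios of cytokinin against control were -0.73 for JAZ7 (counting interval -1.44 to -0.04), -0.47 for JAZ8 (-1.62 to 0.65) and -0.33 for JAZ13 (-1.62 to 0.93). Of all genes, 5.19% passed 2-fold upward and 9.77% downward. A 2-fold decrease lay inside the counting interval of each member, and a 2-fold increase inside none. Among the canonical genes JAZ10 passed 2-fold upward (log2 ratio 1.41) and JAZ9 downward (-1.86), and the median of the 10 was -0.01.

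Added to JA, cytokinin went with opposite differences among the members. JAZ8 was 3.28-fold lower in JA/cytokinin than in JA (log2 ratio -1.71, counting interval -1.97 to -1.46) and JAZ7 1.97-fold lower (-0.98, -1.17 to -0.78). JAZ13 was 2.11-fold higher (1.08, 0.87 to 1.30). JAZ7 and JAZ13 lay so close to 2-fold that the call depended on the processing, as JAZ7 passed it with either rescaling of the libraries (-1.02 and -1.04) and JAZ13 no longer did with a pseudocount of 1 (0.996). In this comparison 8.48% of all genes passed 2-fold upward and 9.1% downward, so that passing it was not uncommon. JAZ8 ranked 950 from the bottom and JAZ13 1703 from the top of the 22291 genes. Of the 13 JAZ genes 10 were lower in JA/cytokinin than in JA, and besides JAZ13 the exceptions were JAZ3 (0.08) and JAZ5 (0.25). Among the canonical genes 0 passed 2-fold upward and 1 downward (JAZ9, -1.66), with a median of -0.50 against -0.98 for the members.

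**Figure D3:**
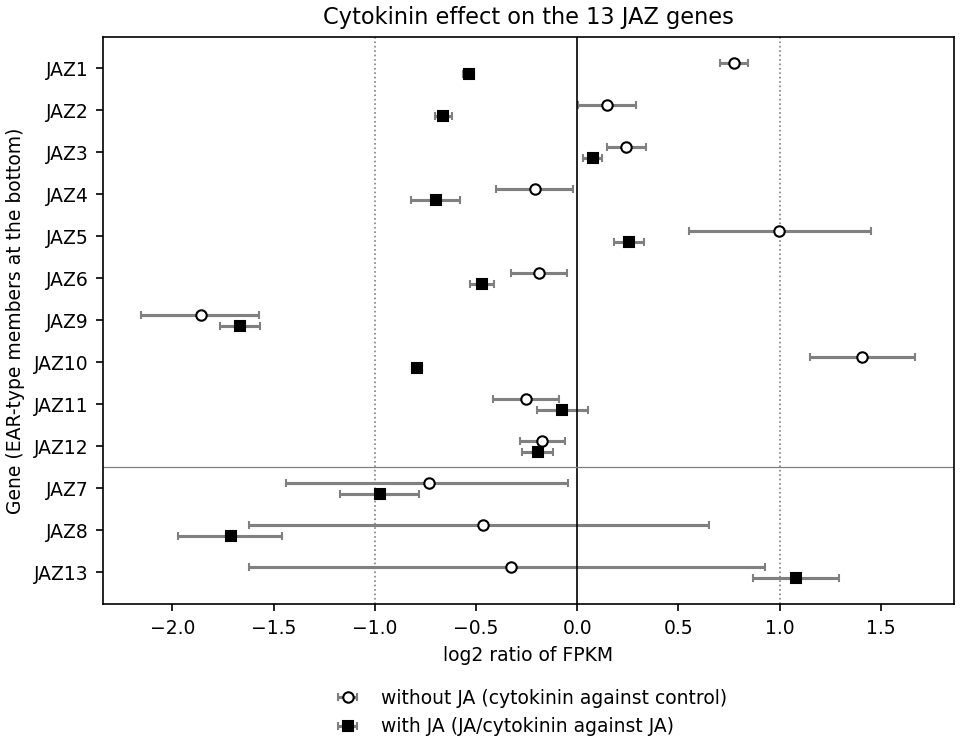
log2 ratios of FPKM for cytokinin against control (open circles) and JA/cytokinin against JA (filled squares) in the 13 JAZ genes, with 95% counting intervals and dotted lines at 2-fold. With JA present JAZ13 lay at 1.08 and JAZ8 at -1.71, the highest and lowest of the family. JAZ9, at -1.66, lay inside the counting interval of JAZ8.

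Lacking replicates, the ratios were also set beside the middle 95% of genes of similar FPKM, a measure added after the data had been seen and computed with 2 groupings. With genes grouped by their mean log2 FPKM over the 4 libraries, all 9 ratios that set a library with JA against one without JA lay above that range. The ratios of JA/cytokinin to JA lay within it, as it ran from -2.62 to 2.26 for JAZ8 and JAZ13 and from -2.02 to 1.83 for JAZ7. With genes grouped by the 2 libraries compared, the range was -1.57 to 1.14 for JAZ13 and JAZ7, which left both inside, and -1.70 to 1.44 for JAZ8, which left its -1.71 at the edge and just outside. The same grouping left JAZ7 and JAZ8 in JA/cytokinin against control inside the range, which ran up to 2.89 and 3.10.

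The JA effect with cytokinin less that without it was 1.41 on the log2 scale for JAZ13 (counting interval 0.24 to 2.57), -1.25 for JAZ8 (-2.31 to -0.18) and -0.25 for JAZ7 (-0.93 to 0.44). The middle 95% of genes of similar FPKM ran from -1.57 to 2.01 for JAZ13 and JAZ8 and from -1.09 to 1.57 for JAZ7, so all 3 lay inside it. Among the canonical genes only JAZ9 (0.19) and JAZ11 had a positive difference. JAZ10 (-2.20) and JAZ1 lay below JAZ8, and each was outside the range of genes of FPKM similar to its own.

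Within a library the members can be compared with each other per length. JAZ8 was 2.03-fold above JAZ13 in JA (counting interval 1.75 to 2.37), and in JA/cytokinin JAZ13 was 3.41-fold above JAZ8 (2.86 to 4.07). The ratio of JAZ13 to JAZ8 was thus 6.92-fold higher in JA/cytokinin than in JA (5.52 to 8.69), and that of JAZ13 to JAZ7 4.16-fold higher (3.41 to 5.07). JAZ7 stayed above JAZ8 in each library, by 2.69-fold in control, 1.16-fold in JA, 2.24-fold in cytokinin and 1.92-fold in JA/cytokinin. Without JA, the level of JAZ8 over JAZ13 was 1.36 in control (0.634 to 2.98) and 1.23 in cytokinin (0.509 to 3.05), which the counting error does not tell from equal levels.

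The members were a small part of the family's RNA. Their summed level was 2.70 FPKM in control, 44.4 in JA, 1.79 in cytokinin and 32.4 in JA/cytokinin. That was 1.66% of the summed FPKM of the 13 JAZ genes in control (counting interval 1.32 to 2.06), 3.09% in JA (2.93 to 3.25), 0.958% in cytokinin (0.720 to 1.25) and 3.32% in JA/cytokinin (3.13 to 3.51). JA raised the members' sum 16.5-fold without and 18.1-fold with cytokinin, and the sum of the canonical genes 8.74-fold and 5.12-fold. JAZ13 supplied 18.6% of the members' sum in JA and 53.8% in JA/cytokinin, while JAZ8 went from 37.8% to 15.8% and JAZ7 from 43.6% to 30.4%. By level, JAZ13 was last of the 13 JAZ genes in control, JA and cytokinin, and number 9 in JA/cytokinin.

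**Figure D4:**
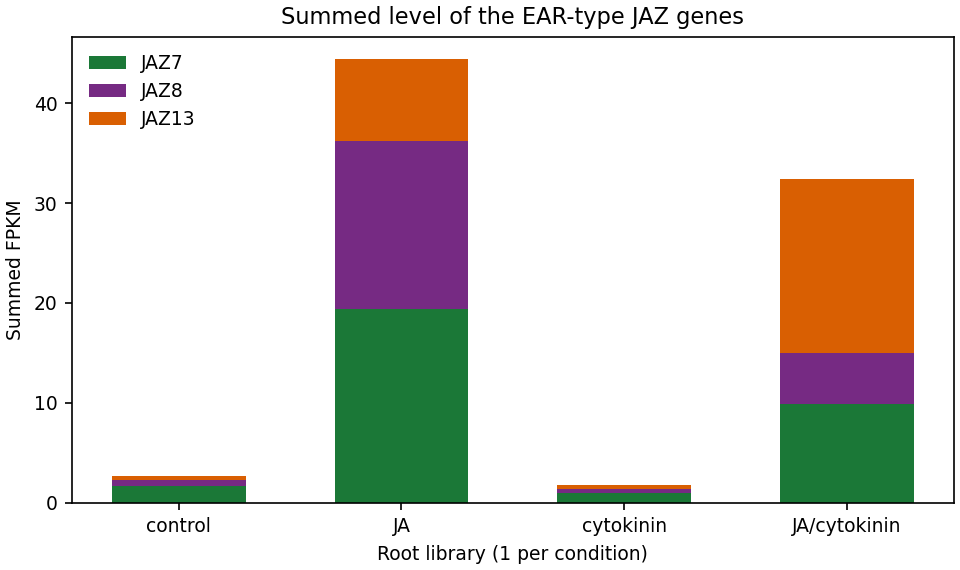
Summed FPKM of JAZ7, JAZ8 and JAZ13 in the 4 root libraries, with each gene's part stacked. The sum was 44.4 FPKM in JA and 32.4 in JA/cytokinin, of which JAZ13 made up 18.6% and 53.8%.

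Of 8 co-repressor genes through which JAZ proteins act (NINJA, TPL, its relatives TPR1 to TPR4, and the histone deacetylases HDA6 and HDA19), 0 passed 2-fold in any of the 5 comparisons. With 8 genes that count is not far from the share of all genes, of which 9.32% passed it upward and 11.3% downward in JA against control. NINJA had the highest JA ratio of the 8, from 38.8 FPKM in control to 71.8 in JA (log2 ratio 0.89), while TPL was at 53.7 and 45.4. Of the 8 receptor and transcription factor genes, MYC5 was listed at 0 in every library, and MYC2 (36.1 to 99.3 FPKM) and the bHLH repressor JAM1 (1.27 to 25.3 FPKM) passed 2-fold from control to JA. From cytokinin to JA/cytokinin JAM1 again passed 2-fold upward, as did 10.2% of all genes, and MYC2 did not (55.7 to 72.3 FPKM). COI1 was at 21.3 FPKM in control and 18.9 in JA. In JA/cytokinin against JA, 1 of these genes passed 2-fold, JAM1 downward (log2 ratio -1.29). With so few genes that count is not far from the 9.1% of all genes that passed 2-fold downward there.

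Genes of JA-Ile synthesis and turnover went mostly the way of the members with JA, as 5 of 6 passed 2-fold upward in JA against control (9.32% of all genes), 4 of 6 in JA/cytokinin against cytokinin (10.2%) and 3 of 6 in JA/cytokinin against control (11.4%). JAR1, which makes JA-Ile, was the exception in JA, with 46.9 FPKM in control and 41.2 in JA. CYP94B3, which oxidises JA-Ile, had 2.99 FPKM in control, 11.8 in JA, 0.961 in cytokinin and 2.39 in JA/cytokinin, and was the only 1 of the 6 past 2-fold in JA/cytokinin against JA (log2 ratio -2.31). With 6 genes that count is not far from the 9.1% of all genes that passed 2-fold downward in that comparison.

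The genes most like each member were sought among the 20442 genes that reached 1 FPKM in any library, by the distance of centred log2(FPKM + 0.1) over the 4 libraries. Closest to JAZ7 were AT1G53903 and AT1G53885 (distance 0.197 each), near-identical copies whose fragments could be split between them and whose levels are uncertain, and ELF4-L3 (0.252). Closest to JAZ8 were the mannose-binding lectin gene AT1G52110 (0.116), the methyltransferase gene AT5G38100 (0.371) and bZIP48 (0.435). AT1G52110 had 0.0784 FPKM in control and 0.0260 in cytokinin, and bZIP48 had 0.198 and 0.0656. The added 0.1 therefore weighs heavily in the distances of AT1G52110 and bZIP48. Closest to JAZ13 were the thioredoxin gene TH7 (0.393), with 149 FPKM in JA and 219 in JA/cytokinin, the uncharacterised AT3G44704 (0.409), which was listed at 0 in control and cytokinin, and the adenosylmethionine decarboxylase gene AT3G25570 (0.542). In control and cytokinin the value of AT3G44704 in the distance was the added 0.1 alone. With 4 libraries such likeness is a description. Within the family, JAZ8 was closest to JAZ7 (0.799), JAZ7 to JAZ2 (0.622) and JAZ13 to JAZ5 (1.04).

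The libraries held between 98605532 reads (cytokinin) and 115141812 reads (JA/cytokinin), of which an estimated 87.3% to 91.9% of pairs were mapped fragments. Root markers were above 0 for 9 of 9 genes in each library, and their summed level was lower with JA, at 436 FPKM in control and 473 in cytokinin against 266 in JA and 257 in JA/cytokinin. In JA against control 2 of the 9 passed 2-fold downward, CASP1 of the endodermis (log2 ratio -1.89) and COBL9 of root hairs (-1.04), and 2 upward, WOX5 of the quiescent centre (1.26) and RHD6 of root hairs (1.09). The part of such shifts between root cell types in the members' ratios was not tested. Of 11 shoot markers, 10 were above 0 in control, with a summed level of 12.0 FPKM, against 3 in JA, 3 in cytokinin and 5 in JA/cytokinin, with summed levels of 0.391, 0.323 and 0.641 FPKM. GL1 was listed at 0 in all 4. The part of shoot material in the ratios to control was not tested, and the ratios of JA/cytokinin to cytokinin and to JA do not use the control library. In RNA of roots not separated by cell type, fewer cells of a type and less RNA per cell cannot be told apart.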

How the data were processed

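The authors isolated polyA-selected RNA from roots, sequenced it from both ends on an Illumina instrument and deposited 1 FPKM value per TAIR10 gene and library, calculated by Cufflinks. Their processing notes name Bowtie, and versions and options are not given in the sources used here. FPKM is already divided by transcript length and mapped fragments. They also deposited a count of reads sequenced per library, before alignment. Columns were matched to conditions by name, and 1 library per condition left nothing to average or test.

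Mapped fragments were estimated from the step between low FPKM values of 17950 genes with 1 transcript, which gave a fragment length of 160 bases. Lengths came from the TAIR10.1 annotation, whose gene models may differ from those the authors used. Levels have exact Poisson intervals and ratios exact conditional binomial intervals at 95%, computed from those fragments, for counting error only. Intervals of differences between ratios are normal approximations on the same fragments. Intervals of the members' share of JAZ FPKM put Poisson error on the members' summed fragments and held the canonical sum fixed. Ratios of FPKM were taken without a pseudocount, and a gene was counted as past the threshold at 2-fold among the 22291 genes with no value of 0.

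The members and the lists were chosen with earlier results of these data known. Named were the 3 members, up to 4 canonical JAZ genes by value beside the counts, genes of the partner and JA-Ile lists, and the 3 genes nearest to each member. The canonical genes given by value (JAZ3, JAZ5, JAZ9 and JAZ10) were picked after their values were seen. The reference table held 53 of 55 listed symbols, and the rest were matched by locus. Global alignments used a gap opening score of -10 and an extension score of -0.5. The estimate of depth and fragment length, the recovery of planted changes and the coverage of the ratio interval were tried on simulated data. The other steps were not.

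Alternatives were pseudocounts of 0.1 and 1, thresholds of 1.5-fold and 3-fold, rescaling by median ratios or TMM-like factors, filters at 1 FPKM, depth and length settings, and, chosen after seeing the data, the ranges of genes of similar FPKM and their second grouping. Tools were Biopython 1.88, pysam 0.24.0, scipy 1.17.1, pandas 2.3.3, numpy 2.4.6 and matplotlib 3.10.9 under Python 3.11.15.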

Additional observations from a re-analysis of the deposited data

How the results depend on the processing

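No paired analysis was possible because there was a single library of each kind, which also meant that none could be left out. The 15 ratios of the members kept their direction under every alternative run, and all 15 stayed inside their counting interval with a pseudocount of 0.1 or with either rescaling. At the 2-fold threshold, JAZ7 in JA/cytokinin against JA passed with median-ratio (-1.02) and TMM-like scaling (-1.04), and 9 rather than 8 canonical JAZ genes passed in JA against control with TMM-like scaling. A pseudocount of 1, close to the levels without JA, brought all 15 nearer to 0, moved 9 of them beyond their counting interval and ended the 2-fold call of JAZ13 in JA/cytokinin against JA (0.996). For JA against control it gave log2 ratios of 2.95 (JAZ7), 3.46 (JAZ8) and 2.68 (JAZ13), for JA/cytokinin against control 2.04, 1.93 and 3.67, and for JA/cytokinin against cytokinin 2.45, 2.09 and 3.76. JAZ13 then had the lowest JA ratio of the members without cytokinin, and with cytokinin it was no longer the highest of the family. The canonical medians with that pseudocount were 2.51, 2.05 and 2.02 in the same order, against 2.95, 2.04 and 2.45 for the members. The members' higher median thus shrank, and in JA/cytokinin against control it was gone. Canonical JAZ genes past the threshold upward in cytokinin against control numbered 3 at 1.5-fold and 0 at 3-fold, against 1 at 2-fold, and 4 were lower in JA/cytokinin than in JA at 1.5-fold, against 1. With JAZ7 and JAZ8 only, the share of summed JAZ FPKM was 2.52% in JA and 1.53% in JA/cytokinin. The higher share of all 3 members in JA/cytokinin than in JA, with counting intervals that overlapped, thus rested on JAZ13. Of the members' 15 ratios, 9 lay outside the range of genes of similar FPKM with the first grouping and 8 with the second. The genes nearest in pattern depended on the measure. With Pearson r, 0 of the 3 were shared for any member, and with a pseudocount of 1, 0 for JAZ7 and JAZ8 and 1 for JAZ13. The shares of all genes past the threshold also moved by more than 1.5 times. In JA against control, 17.1% were higher at 1.5-fold, 4.86% at 3-fold and 5.55% with a pseudocount of 1, and in JA/cytokinin against JA 16.3%, 4.16% and 3.64%. With under 20 estimated fragments behind JAZ8 and JAZ13 in control and cytokinin, a 2-fold decrease with cytokinin alone was not detectable at this depth.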

Other observations

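The shoot marker TMM, which is not among the genes the report names by its rule, was 0.851 FPKM in control, 0.0443 in JA, 0.277 in cytokinin and 0.237 in JA/cytokinin. Its cytokinin ratio was thus -1.62 on the log2 scale without JA and 2.42 with JA, a difference of 4.04 that was not tested. The JA value rested on an estimated 3.51 fragments, and the control library held more RNA of shoot markers than the others, as given above. It was first set aside with the other marker genes after its value had been seen.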
